A study of Mus musculus with 24 samples.

Results

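The genes described here encode the receptors through which macrophages bind antibody and activated complement. They were chosen by name: Fcgr1, Fcgr2b, Fcgr3, Fcgr4, Fcer1g, C3ar1, C5ar1, Itgam and Itgb2, which are 9 of the 17017 genes in each expression table. The cells were primary alveolar macrophages of wild-type BALB/cJ mice, and RNA was sequenced 20 h after stimulation. The 8 groups were untreated, rIL-13, rIL-33, rIL-17A, rIL-33/rIL-13, rIL-13/rIL-17A, rIL-33/rIL-17A and rIL-33/rIL-13/rIL-17A, written below without the r, with 3 libraries each and 24 in all. Age and cytokine dose are not given in the labels. Nor do the labels say that the 3 libraries of a group are separate mice or separate wells, and the p-values therefore measure only the spread between libraries, which may be technical.

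Fcγ receptors bind the constant part of IgG and drive phagocytosis of antibody-coated particles. Fcgr1, Fcgr3 and Fcgr4 encode activating receptors, which signal through the common γ chain encoded by Fcer1g, whereas Fcgr2b encodes the inhibitory receptor, whose ITIM motif recruits the phosphatase SHIP1. C3ar1 and C5ar1 encode G protein-coupled receptors for the anaphylatoxins C3a and C5a. Itgam and Itgb2 encode CD11b and CD18, the 2 chains of complement receptor 3 (Mac-1), which binds iC3b.

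Values are TPM (transcripts per M, M being 1e6) as deposited, for which the whole gene span, introns included, served as the gene length. Reads recovered from these values came to between 9.11 and 12.9 M per library. Of 14 alveolar macrophage markers, all were in the tables and 13 reached 1 TPM in at least 3 libraries. Marco did not exceed 0.799 TPM in any library. Car4 reached 1 TPM through libraries with IL-13, with means of 0.116 TPM without and 2.07 TPM with it. Markers moved both ways with IL-13, as Siglecf went from 527 to 296 TPM and Chil3 from 372 to 4600 TPM. The library labelled IL-33+IL-13+IL-17A replicate 2 stood apart, with 11569 genes at 1 TPM or more against 11845 to 12204 in the others. Its part in each result is given where it matters.

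Promoter sequences are shown first because 7 of the 9 genes fell and 1 rose with IL-13, where 30.9% and 20% of all genes tested did. The IL-13 receptor signals through STAT6, and whether STAT6 acts on these genes was not tested. RefSeq (GRCm38.p6) gave start sites for 8 of the genes, and the 250 bases before each start were searched on both strands for TTC and GAA 4 bases apart (the spacing preferred by STAT6), TTC and GAA 3 bases apart, written TTCNNNGAA (the spacing of other STAT factors), and GAGGAA (a core bound by PU.1, a master factor of macrophages). The windows of 3 activating Fcγ receptor genes, of their common γ chain gene and of Itgam are printed 5′ to 3′ on the gene's own strand, with matches in capitals. They lie at chr3:96293970-96294219 (minus strand) for Fcgr1, chr1:171059404-171059653 (minus) for Fcgr3, chr1:171018676-171018925 (plus) for Fcgr4, chr1:171234350-171234599 (minus) for Fcer1g and chr7:128062390-128062639 (plus) for Itgam.
Fcgr1: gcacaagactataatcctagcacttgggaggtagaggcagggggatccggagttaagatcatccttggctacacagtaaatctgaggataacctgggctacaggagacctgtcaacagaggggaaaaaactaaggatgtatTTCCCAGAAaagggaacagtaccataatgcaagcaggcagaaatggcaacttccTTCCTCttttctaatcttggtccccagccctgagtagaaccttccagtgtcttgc
Fcgr3: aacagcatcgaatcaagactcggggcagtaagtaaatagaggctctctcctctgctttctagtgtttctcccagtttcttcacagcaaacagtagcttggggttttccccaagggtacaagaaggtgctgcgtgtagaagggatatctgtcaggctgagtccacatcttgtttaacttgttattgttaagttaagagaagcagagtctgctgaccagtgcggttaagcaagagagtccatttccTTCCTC
Fcgr4: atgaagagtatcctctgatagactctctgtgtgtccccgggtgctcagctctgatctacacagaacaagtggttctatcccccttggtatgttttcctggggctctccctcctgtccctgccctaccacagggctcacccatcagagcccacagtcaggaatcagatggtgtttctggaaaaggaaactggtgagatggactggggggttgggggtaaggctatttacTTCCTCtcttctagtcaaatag
Fcer1g: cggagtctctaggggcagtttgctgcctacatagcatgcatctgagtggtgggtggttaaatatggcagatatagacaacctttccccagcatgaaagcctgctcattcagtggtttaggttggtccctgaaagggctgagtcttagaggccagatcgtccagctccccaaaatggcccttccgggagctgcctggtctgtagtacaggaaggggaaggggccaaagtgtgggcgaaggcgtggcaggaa
Itgam: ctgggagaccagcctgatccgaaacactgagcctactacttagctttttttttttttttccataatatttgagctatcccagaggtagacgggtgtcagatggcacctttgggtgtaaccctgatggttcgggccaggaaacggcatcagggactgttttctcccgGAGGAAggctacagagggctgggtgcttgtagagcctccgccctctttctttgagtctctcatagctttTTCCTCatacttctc

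None of the 8 genes had TTC and GAA 4 bases apart in this window, a motif present in 5.85% of 32851 RefSeq promoter windows of that length. Fcgr1 held TTCCCAGAA, a TTCNNNGAA match, from 109 to 101 bases before the start, and 7.02% of all windows held this motif. GAGGAA, present in 23.3% of all windows, was found in Fcgr1, Fcgr3, Fcgr4 and Itgam, mostly as TTCCTC on the printed strand. It lay between 22 and 17 bases before the start in Fcgr4 and between 15 and 10 in Itgam, which had a further match from 84 to 79. Fcgr2b, Fcer1g, C3ar1 and C5ar1 had no match. These are descriptions of letters in the windows. The Fcgr2b window is not printed because 187 of its bases lie in annotated exons, and its lack of a match is read with that limit. The printed Fcgr3 window is 1 of 2 from RefSeq. It lies inside the annotated gene, which runs from 171051174 to 171064935, and 27 of its bases lie in annotated exons. The C5ar1 window, from 16259339 to 16259588, lies mostly inside its annotated gene, which runs from 16246743 to 16259540. In it 28 bases lie in annotated exons, and the lack of a match for C5ar1 is read with that limit too.

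Compared per exon length, the 9 genes lay at very different levels. Itgb2 was highest at 872 reads per kilobase of exon per M, averaged over the 24 libraries, followed by Fcer1g at 306 and Fcgr3 at 197. Fcgr4 came next at 30.2, Itgam at 28.4 and Fcgr2b at 10.4. C3ar1 stood at 4.53, Fcgr1 at 0.751 and C5ar1 at 0.386. Fcgr4 and Itgam did not differ beyond their spread, at 34.8 ± 3.02 and 32.3 ± 3.29 on this scale in the libraries without IL-13 (SD, n = 12 for each). The gene for CD18, which pairs with several α chains, was thus far above the gene for CD11b, and among Fcγ receptor genes Fcgr3 was the most abundant. All 9 passed the filter for testing, 1 TPM or more in at least 3 libraries. C5ar1 passed only through the groups without IL-13, and it rested on 253 reads in all libraries together, against 494 for Fcgr1 and 4979 or more for each other gene.

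**Figure D1:**
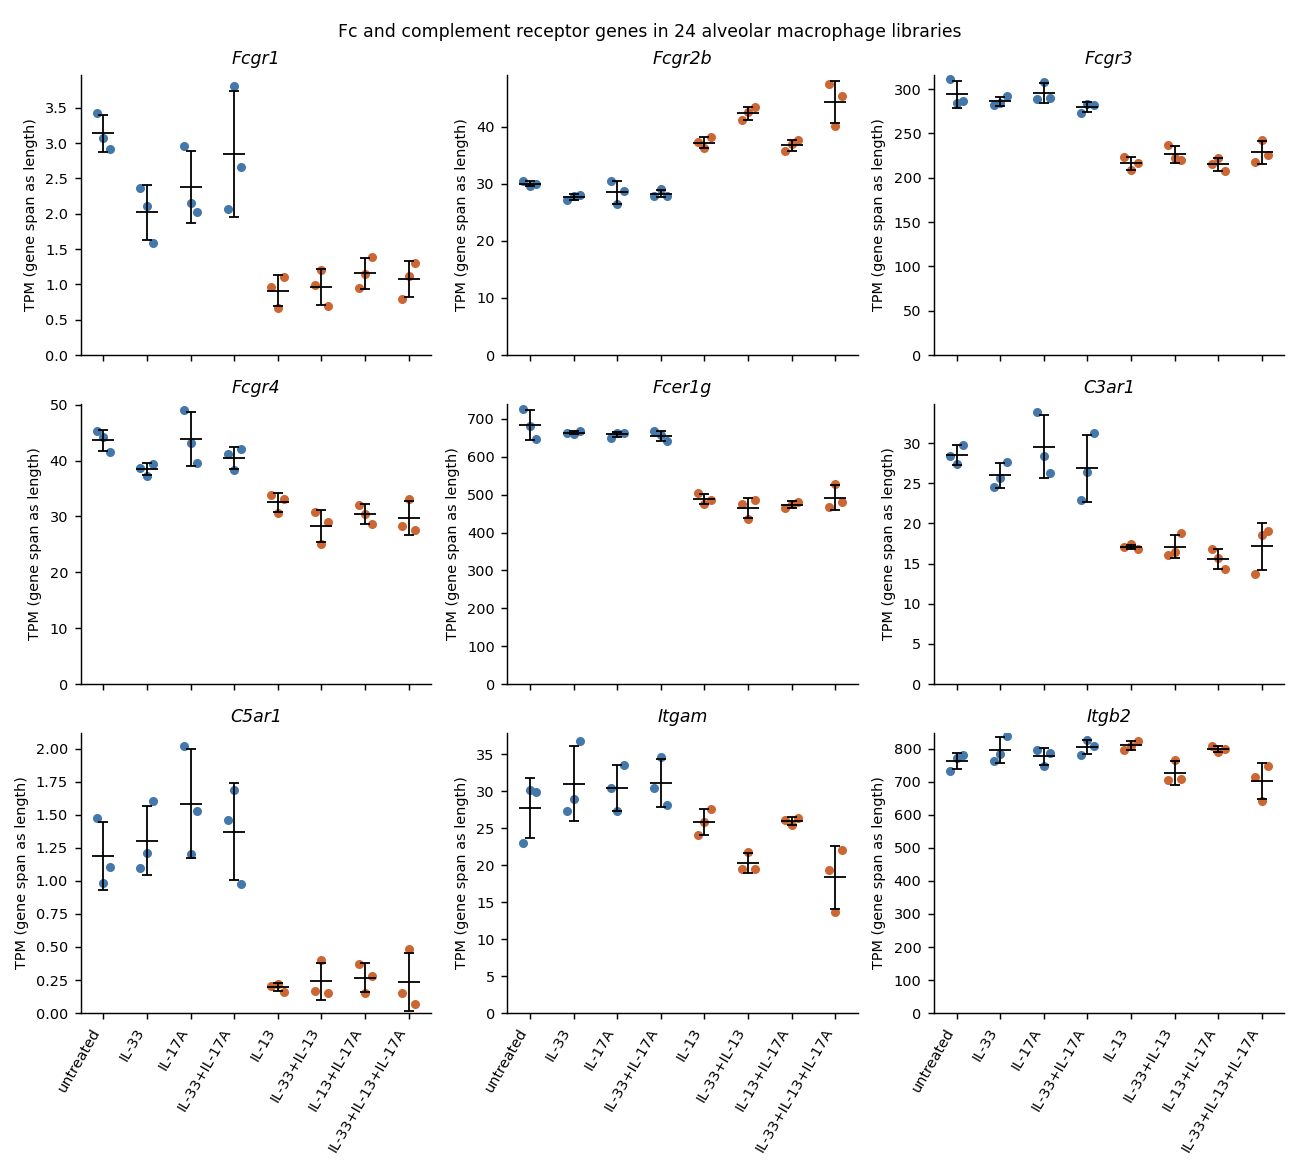
TPM of each gene (y axis, from 0) in the 3 libraries of each of 8 groups (x axis); points are libraries, bars are mean and SD, blue marks groups without IL-13 and orange groups with it. For 7 genes the orange and blue points do not overlap, with Fcgr2b above and the other 6 below, while Itgam and Itgb2 overlap. Of all genes tested, 6.18% had every library with IL-13 above every library without, and 8.87% had every one below.

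IL-13 lowered the activating Fcγ receptor genes and their γ chain gene and raised the inhibitory receptor gene. In untreated libraries Fcgr2b stood at 30.5, 29.6 and 30.02 TPM, and with IL-13 alone at 37.2, 36.2 and 38.2 TPM. Fcgr3 stood at 311, 284 and 287 TPM untreated and at 224, 208 and 217 TPM with IL-13. All 3 IL-13 libraries were above the untreated ones for Fcgr2b and below them for Fcgr3. In bulk RNA, fewer cells of a type and less RNA per cell cannot be told apart.

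Averaged over the 4 backgrounds (no other cytokine, IL-33, IL-17A or both), which share no libraries, IL-13 raised Fcgr2b by 0.47 on the scale log2(TPM + 1) (SE 0.026, limma adjusted p = 1.54e-11). The 12 libraries with IL-13 ranged from 35.7 to 47.4 TPM around a median of 39.2, and the 12 without it from 26.4 to 30.5 around 28.4. The ranges did not overlap. Fcgr3, the low-affinity activating receptor, fell by 0.38 (SE 0.022, limma adjusted p = 2.77e-11), from a median of 286 TPM (273 to 311) to 221 TPM (208 to 243). Its ranges did not overlap either.

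Fcgr4, the activating receptor for IgG2a and IgG2b, stood at 45.3, 44.1 and 41.6 TPM untreated and at 33.9, 30.6 and 33.1 TPM with IL-13 alone. Over the 4 backgrounds it fell by 0.45 (SE 0.041, limma adjusted p = 2.40e-08), and its highest library with IL-13, at 33.9 TPM, was below its lowest without, at 37.3 TPM. Fcgr1, the high-affinity receptor, stood at 3.42, 3.08 and 2.92 TPM untreated and at 0.966, 0.668 and 1.10 TPM with IL-13 alone. The drop of Fcgr1 was 0.81 (SE 0.082, limma adjusted p = 8.31e-08), so a receptor gene already low in these cells fell further. With a pseudocount of 0.1 TPM in place of 1 its log2 difference was -1.25, since adding 1 TPM compresses the change of a low gene. Fcer1g stood at 726, 680 and 646 TPM untreated and at 504, 476 and 487 TPM with IL-13 alone. It fell by 0.47 over the backgrounds (SE 0.023, limma adjusted p = 1.83e-12), an effect close in size to those of Fcgr3 and Fcgr4.

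Both anaphylatoxin receptor genes fell. C3ar1 stood at 28.4, 27.4 and 29.8 TPM untreated and at 17.1, 17.4 and 16.8 TPM with IL-13 alone. Over the 4 backgrounds it fell by 0.69 (SE 0.058, limma adjusted p = 6.36e-09), and its mean with IL-13 was 60.4% of that without. C5ar1 stood at 1.48, 0.988 and 1.10 TPM untreated and at 0.209, 0.216 and 0.159 TPM with IL-13 alone. Its 12 libraries with IL-13 ran from 0.0701 to 0.483 TPM, all below the 0.974 to 2.02 TPM of the others, and its mean with IL-13 was 17.2% of that without. C5ar1 fell by 0.93 at a pseudocount of 1 (SE 0.081, limma adjusted p = 9.96e-09), and its log2 difference was -2.18 at a pseudocount of 0.1. It passed the filter of 1 TPM only through libraries without IL-13, which favours a fall. The p-value is therefore not taken as support, and the levels are a description. Each library with IL-13 held between 1 and 7 reads of C5ar1.

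For both complement receptor 3 genes the libraries with and without IL-13 overlapped. Itgam stood at 23.03, 30.2 and 29.9 TPM untreated and at 24.1, 25.9 and 27.6 TPM with IL-13 alone, and these groups overlapped. Averaged over the backgrounds Itgam fell by 0.41 (SE 0.071, limma adjusted p = 7.13e-05), but its libraries with IL-13, from 13.7 to 27.6 TPM, overlapped those without, from 23.03 to 36.8 TPM. Itgb2 differed by -0.05 (95% interval -0.10 to 0.00033, limma adjusted p = 0.0925) and did not pass the test. It was called, at -0.03, with voom on recovered reads (adjusted p = 0.0246), and at -0.06 without IL-33+IL-13 replicate 2 or without IL-33+IL-13+IL-17A replicate 3 (adjusted p = 0.0414 and 0.0279).

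The remaining groups were split in the same way. Fcer1g stood at 659 ± 7.38 TPM with IL-17A, 663 ± 3.76 with IL-33 and 655 ± 12.8 with both, and at 474 ± 8.16, 465 ± 26.5 and 492 ± 32.5 when IL-13 was added to these (SD, n = 3 for each group, as for the next genes). Fcgr3 stood at 296 ± 11.1, 286 ± 4.97 and 279 ± 5.69 TPM in the same groups without IL-13, and at 215 ± 6.96, 226 ± 9.06 and 229 ± 12.7 with it. Fcgr4 stood at 43.8 ± 4.81, 38.4 ± 1.07 and 40.5 ± 1.95 TPM without and at 30.4 ± 1.78, 28.3 ± 2.90 and 29.7 ± 3.04 with IL-13. For each of these genes every group with IL-13 lay below every group without it. Fcgr1 stood at 2.38 ± 0.509, 2.02 ± 0.393 and 2.85 ± 0.890 TPM without and at 1.16 ± 0.221, 0.963 ± 0.255 and 1.07 ± 0.254 with IL-13, the widest relative spread of the Fc receptor genes. C3ar1 stood at 29.5 ± 3.93, 26.0 ± 1.58 and 26.9 ± 4.21 TPM without and at 15.6 ± 1.23, 17.1 ± 1.47 and 17.2 ± 2.95 with IL-13. C5ar1 stood at 1.58 ± 0.413, 1.31 ± 0.264 and 1.37 ± 0.364 TPM without and at 0.269 ± 0.111, 0.241 ± 0.139 and 0.235 ± 0.219 with IL-13. Itgam stood at 30.5 ± 3.11, 31.02 ± 5.04 and 31.05 ± 3.24 TPM without and at 25.96 ± 0.526, 20.3 ± 1.33 and 18.4 ± 4.23 with IL-13, so its groups with IL-33 and IL-13 were the lowest.

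In the average over backgrounds 8 of the 9 genes were called, 1 higher and 7 lower, where 50.9% of the 13215 genes tested were called, 20% higher and 30.9% lower. The median log2 difference of the 9 genes was -0.45, beside -0.05 over all genes tested. Of all genes tested, 6.18% had every library with IL-13 above every library without, as Fcgr2b did, and 8.87% had every one below, as Fcgr1, Fcgr3, Fcgr4, Fcer1g, C3ar1 and C5ar1 did. The calls of the receptor genes are read beside these shares. C5ar1 is included in these counts and in those of the single backgrounds, although it passed the filter only through libraries without IL-13. Its calls and its separation are therefore not taken as support. Median-ratio scaling changed the share of higher genes among those called from 39.3% to 50.5% and left the calls of the 9 genes in this average as they were, with Itgb2 at 0.0029 in place of -0.05.

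The effect sizes in the single backgrounds varied by gene. Against untreated cells, IL-13 changed 7 of the 9 genes (29.8% of all genes tested: 14.1% higher and 15.7% lower), 1 higher and 6 lower. With IL-33 present it changed 8 (23.9%: 11.2% higher and 12.8% lower), 1 higher and 7 lower. With IL-17A present it changed 7 (29.8%: 12.2% higher and 17.6% lower), 1 higher and 6 lower. With IL-33 and IL-17A present it changed all 9 (32.7%: 11% higher and 21.7% lower), 1 higher and 8 lower. The extra calls were Itgam and Itgb2, the chains of complement receptor 3.

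Fcer1g had a narrow range of effects, from -0.51 with IL-33 to -0.42 with both cytokines. Fcgr3 ran from -0.46 with IL-17A to -0.29 with both, and the last of these was not called after median-ratio scaling (-0.18, limma adjusted p = 0.101). That scaling also moved the share of higher genes among all called in this background from 33.6% to 52.4%. Fcgr4 lay between -0.51 and -0.41. Fcgr1 ran from -1.12 against untreated to -0.62 with IL-33, where its call was lost without IL-33+IL-13 replicate 3 (limma adjusted p = 0.0513). C3ar1 ran from -0.88 with IL-17A to -0.58 with IL-33, and C5ar1 from -1.02 to -0.87.

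The increase of Fcgr2b was larger where IL-33 was present, by the interaction test given with IL-33, at 0.60 with IL-33 and 0.63 with both cytokines, beside 0.30 against untreated and 0.36 with IL-17A. Itgam fell by 0.58 with IL-33 (limma adjusted p = 0.00467) and by 0.75 with both (limma adjusted p = 0.000449). Against untreated its log2 difference was -0.09 (95% interval -0.38 to 0.21) and with IL-17A -0.22 (-0.51 to 0.08), and neither passed. Itgb2 fell by 0.20 with IL-33 and IL-17A (limma adjusted p = 0.00366), and in the other backgrounds it differed by between -0.13 and 0.09 without passing the test. Other settings called Itgb2 there in opposite directions. With IL-33 it was lower, at -0.11 after median-ratio scaling and -0.14 with voom (adjusted p = 0.00388 and 0.000207), and also with a minimum mean of 5 TPM (adjusted p = 0.0478) and without IL-33 replicate 1, IL-33+IL-13 replicate 2 or replicate 2 or 3 of IL-33+IL-13+IL-17A (adjusted p = 0.0426, 0.0235, 0.0180 and 0.0384). Against untreated it was higher, at 0.12 after median-ratio scaling and 0.08 with voom (adjusted p = 0.00122 and 0.0223), and with IL-17A it was higher at 0.09 after median-ratio scaling (adjusted p = 0.0122).

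**Figure D2:**
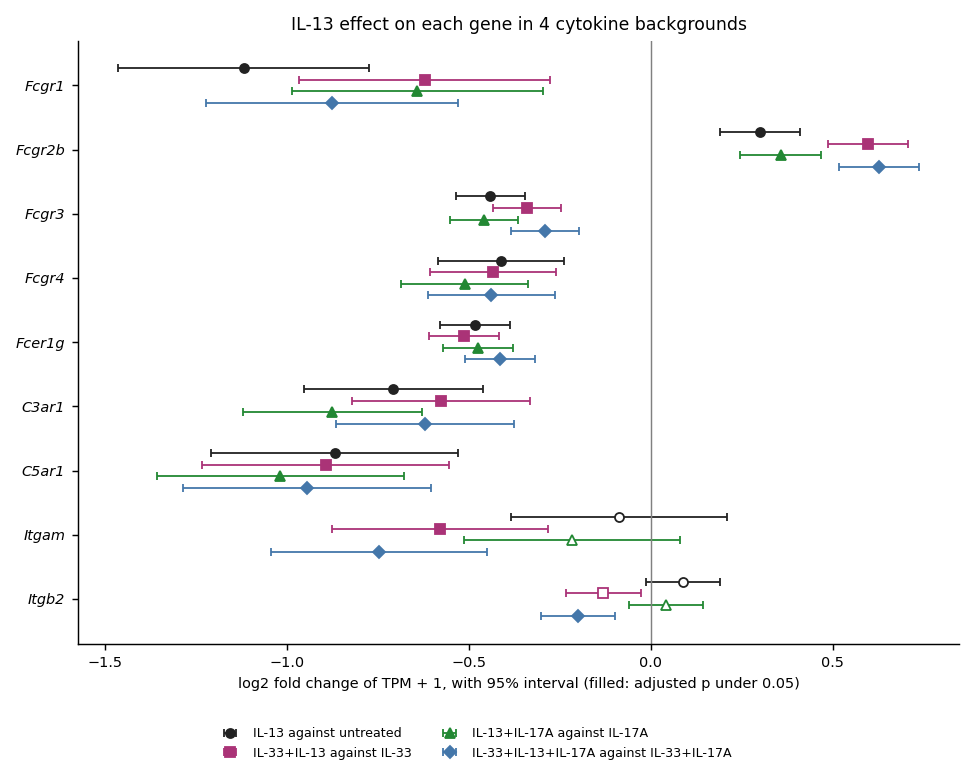
Log2 fold change of TPM + 1 for IL-13 (x axis) of each gene (y axis) in 4 backgrounds, with 95% intervals from limma; filled symbols have an adjusted p under 0.05. Fcgr2b lies to the right of 0 in all 4 backgrounds, from 0.30 to 0.63, and 6 genes lie to the left in all 4; Itgam and Itgb2 cross 0 or lie near it without IL-33.

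The balance of activating to inhibitory Fcγ receptor transcripts followed from these changes and is given as a description. The ratio of Fcgr3 to Fcgr2b TPM was 10.1 ± 0.594 in the libraries without IL-13 and 5.56 ± 0.486 in those with it (SD, n = 12 for each). For Fcgr4 to Fcgr2b it was 1.45 ± 0.0987 without and 0.762 ± 0.120 with IL-13. TPM here use gene span as length, and per exon length Fcgr4 was above Fcgr2b in both sets, at 34.8 against 8.58 reads per kilobase of exon per M without IL-13 and 25.6 against 12.2 with it. For Fcgr1 to Fcgr2b it was 0.0902 ± 0.0204 without and 0.0258 ± 0.00611 with. The 2 sets of libraries did not overlap in any of these 3 ratios. This had to be so, since neither gene of each pair overlapped and they moved in opposite directions, and it adds no further result. Within the complement receptors, C5ar1 to C3ar1 went from 0.0495 ± 0.0113 to 0.0141 ± 0.00711 without overlap. This rests on 1 to 7 C5ar1 reads in each library with IL-13, and the log2 difference of -1.96 shrank to -0.24 with 1 TPM added to both genes. Itgam to Itgb2 went from 0.0382 ± 0.00350 to 0.0296 ± 0.00344 with overlap. The lowest Fcgr4 to Fcgr2b ratios were in the groups with IL-33 and IL-13, at 0.669 ± 0.0791 without IL-17A and 0.677 ± 0.129 with it (SD, n = 3 for each).

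**Figure D3:**
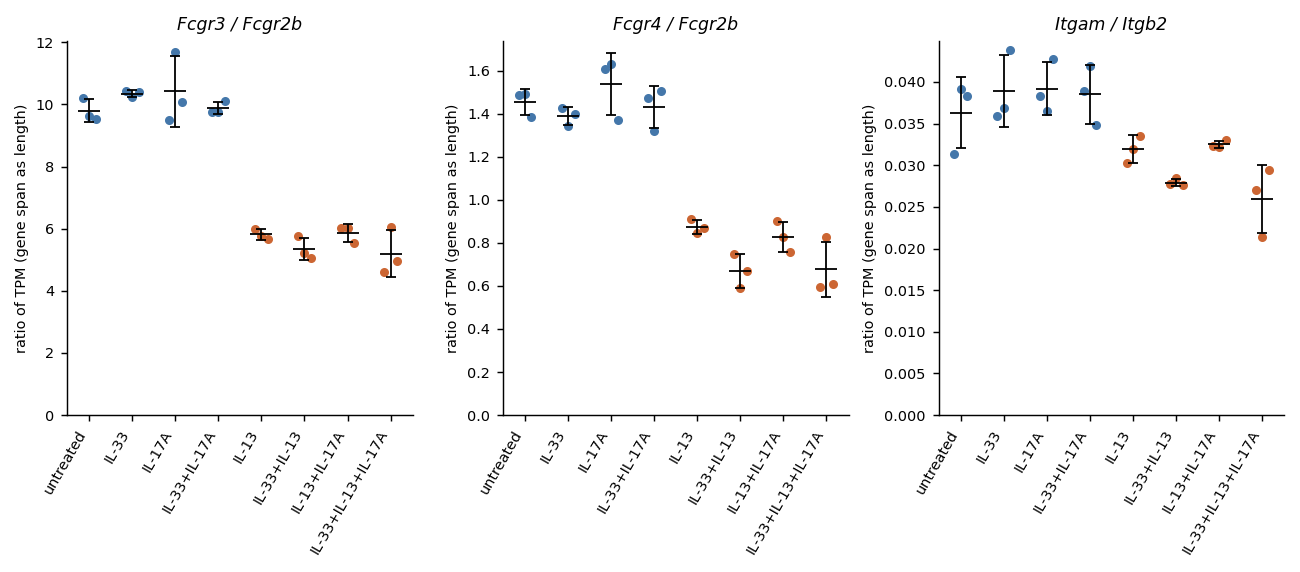
Ratio of TPM between pairs of receptor genes (y axis, from 0) in the 3 libraries of each group (x axis); points are libraries, bars are mean and SD, blue without and orange with IL-13. Fcgr3 over Fcgr2b lies between 9.497 and 11.7 without IL-13 and between 4.60 and 6.04 with it, and Fcgr4 over Fcgr2b also separates the 2 sets, while Itgam over Itgb2 overlaps.

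Neither IL-33 nor IL-17A changed a receptor gene by the test in the absence of IL-13. Against untreated cells, IL-33 called none of the 9 genes and 0% of all genes tested by limma, with 484 genes at an unadjusted p under 0.05. IL-17A likewise called none (0%, 469 genes unadjusted), nor did both together (0%, 501 genes unadjusted), and voom called 0 genes in each. The intervals bound what could have been missed. For IL-33, Fcgr2b differed by -0.11 (95% interval -0.22 to -0.0030), Fcgr4 by -0.18 (-0.35 to -0.0055) and Fcgr1 by -0.46 (-0.81 to -0.12), all with a limma adjusted p of 1. Fcgr1 stood at 2.36, 2.11 and 1.59 TPM with IL-33, below all 3 untreated libraries, yet with IL-33 and IL-17A it stood at 2.06, 3.81 and 2.66 TPM and overlapped them. For IL-17A, Fcgr3 differed by 0.0089 (-0.08 to 0.10) and Fcer1g by -0.05 (-0.15 to 0.04), so changes of these 2 genes as large as those with IL-13 lie outside the intervals.

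Adding IL-17A where IL-13 was present did not change the receptor genes by the test either. IL-17A added to IL-13 called none of the 9 and 0% of all genes by limma (373 genes unadjusted, 0 by voom), and added to IL-33 and IL-13 it also called none and 0% (826 unadjusted, 0 by voom). The interaction of IL-17A with IL-13 called 0% by limma (665 unadjusted, 1 by voom), and none of the 9 genes. The widest of these intervals belonged to Fcgr1, whose difference for IL-17A added to IL-13 was 0.18 (95% interval -0.17 to 0.52).

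IL-33 moved 3 of the receptor genes when IL-13 was also present. Averaged over IL-17A, IL-33 raised Fcgr2b by 0.22 (SE 0.037, limma adjusted p = 0.000659), lowered Itgam by 0.42 (SE 0.0998, limma adjusted p = 0.0129) and lowered Itgb2 by 0.17 (SE 0.034, limma adjusted p = 0.00285). Here 7.01% of all genes were called, 2.53% higher and 4.48% lower, and after median-ratio scaling the share of higher genes among those called went from 36.1% to 46.9%. The other 6 genes did not pass, among them C3ar1 at 0.06 (95% interval -0.11 to 0.23), C5ar1 at 1.79e-05 (-0.24 to 0.24) and Fcer1g at -0.01 (-0.08 to 0.06).

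For Fcgr2b the libraries with IL-33 and IL-13 stood at 41.1, 42.6 and 43.4 TPM, and those with all 3 cytokines at 47.4, 40.2 and 45.4 TPM. With IL-13 and IL-17A they stood at 35.7, 36.9 and 37.7 TPM. All 6 libraries with IL-33 and IL-13 were above the highest of the 6 with IL-13 and no IL-33, at 38.2 TPM. Itgam stood at 19.5, 21.8 and 19.5 TPM with IL-33 and IL-13 and at 19.4, 13.7 and 22.02 TPM with all 3, all below the lowest value with IL-13 and no IL-33, 24.1 TPM. Itgb2, the shared β chain of the β2 integrins, stood at 705, 767 and 707 TPM with IL-33 and IL-13 and at 715, 642 and 749 TPM with all 3. Those 6 values were below the 789 to 824 TPM of the 6 libraries with IL-13 and no IL-33. The lowest library for both integrin genes was IL-33+IL-13+IL-17A replicate 2. How many of all genes tested separate these 2 sets of 6 libraries was not counted, so the separations are descriptions.

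The single comparisons were less steady. IL-33 added to IL-13 called none of the 9 genes (2.57% of all genes, 340 genes), while Fcgr2b and Itgb2 were both called after median-ratio scaling, with voom and without IL-33+IL-13+IL-17A replicate 2. IL-33 added to IL-13 and IL-17A called 2 (3.55%: 1.15% higher and 2.40% lower), Fcgr2b at 0.26 (limma adjusted p = 0.00637) and Itgb2 at -0.19 (limma adjusted p = 0.0354). Median-ratio scaling moved the share of higher genes among all called there from 32.4% to 43.8%. The call of Itgb2 was lost without replicate 1, 2 or 3 of IL-13+IL-17A (adjusted p = 0.129, 0.0840 and 0.105) and without replicate 1 or 2 of IL-33+IL-13+IL-17A (adjusted p = 0.0585 and 0.197). The call of Fcgr2b was lost without the libraries whose titles are numbered 30 or above (adjusted p = 0.0534), and neither gene was called in a limma fit of these 2 groups alone (adjusted p = 0.334 and 0.402). Itgam, not called in this comparison at -0.50, was called after median-ratio scaling, with voom and without the libraries numbered 30 or above (adjusted p = 0.0219, 0.00957 and 0.0145), with a minimum mean of 5 TPM (adjusted p = 0.0440), and without untreated replicate 1, IL-33 replicate 3 or IL-33+IL-13+IL-17A replicate 3 (adjusted p = 0.0420, 0.0434 and 0.0155).

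The effect of IL-33 differed with and without IL-13 for Fcgr2b, whose interaction averaged over IL-17A was 0.28 (SE 0.053, limma adjusted p = 0.00312), and for Itgb2, at -0.23 (SE 0.048, limma adjusted p = 0.00872). The interaction called 3.57% of all genes, 1.46% higher and 2.11% lower. Without IL-33+IL-13+IL-17A replicate 2 these values were 0.32 (adjusted p = 0.000204) and -0.20 (adjusted p = 0.00726). The Itgam interaction was -0.51 (limma adjusted p = 0.0531) and not called, while median-ratio scaling (adjusted p = 0.0119), voom (adjusted p = 0.00555) and a minimum mean of 5 TPM (adjusted p = 0.0404) called it, as did leaving out IL-17A replicate 3, IL-33 replicate 1 or IL-33+IL-13+IL-17A replicate 3 (adjusted p = 0.0482, 0.0451 and 0.0173). Among the 9 genes, Fcgr2b alone passed as higher both for IL-13 averaged over backgrounds and for IL-33 added to IL-13 averaged over IL-17A.

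**Figure D4:**
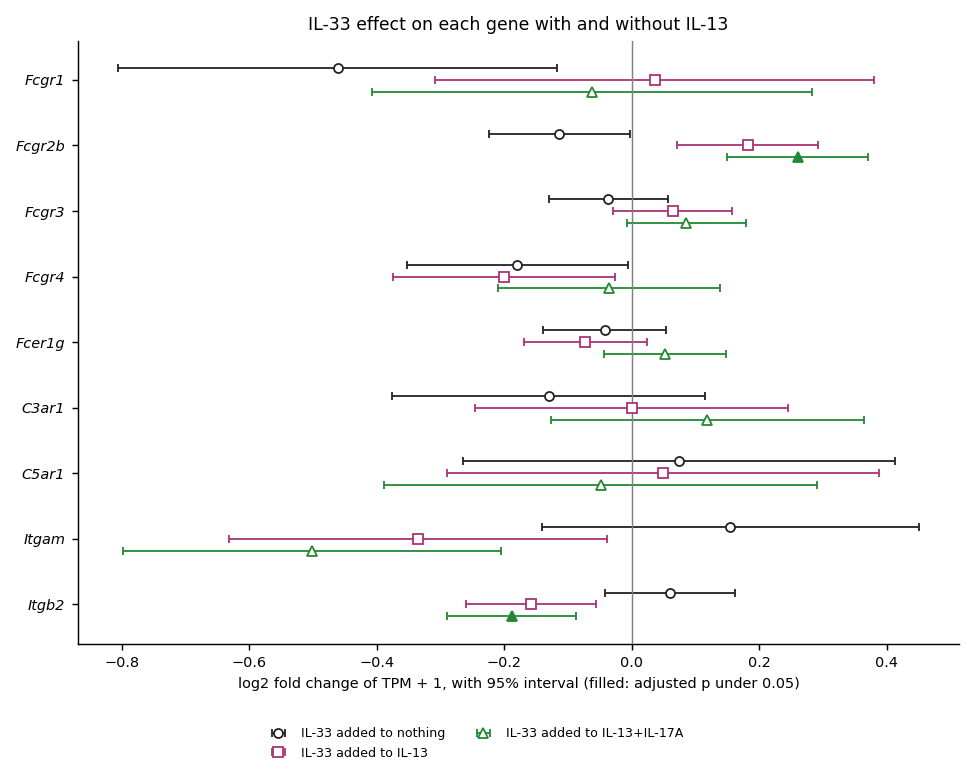
Log2 fold change of TPM + 1 for IL-33 (x axis) of each gene (y axis), added to untreated cells, to IL-13 or to IL-13 and IL-17A, with 95% intervals from limma; filled symbols have an adjusted p under 0.05. The filled symbols are Fcgr2b at 0.26 and Itgb2 at -0.19, both for IL-33 added to IL-13 and IL-17A.

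The receptor genes shared part of their variation between libraries, described by Pearson's r of log2(TPM + 1). Itgam and Itgb2 gave r = 0.86 over 24 libraries, 0.84 over the 12 without IL-13 and 0.98 over the 12 with it. Fcgr3 and Fcer1g gave r = 0.96 over 24 libraries, but 0.57 and 0.42 within the sets without and with IL-13. Fcgr2b and Fcer1g gave -0.90 over 24 libraries, and 0.29 and -0.18 within the sets. The non-member genes most like each receptor over the 24 libraries, at a mean of 5 TPM or more, were Il18 (r = 0.98) and Tyrobp (0.98) for Fcgr3, Gstm1 (0.98) and Msrb1 (0.98) for Fcer1g, and Glipr1 (0.94) and Smpdl3a (0.93) for Fcgr4. For Fcgr2b they were Spcs2 (0.96) and Nek6 (0.96), and for Fcgr1 B4galt7 (0.94) and Hsd3b7 (0.93). Selenop (0.97) and Mpp1 (0.96) were most like C3ar1, Sri (0.96) and Dok3 (0.96) most like C5ar1, Slc43a2 (0.97) and Ptpn7 (0.95) most like Itgam, and Abcc1 (0.94) and Actr3 (0.93) most like Itgb2. Libraries differ in depth, from 9.11 to 12.9 M recovered reads, and values over all 24 include the IL-13 split. These correlations are descriptions.

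The pathway around the receptors was described by 7 lists of 111 further genes. Of 19 genes of activating Fc receptor signalling, IL-13 averaged over backgrounds raised 2 and lowered 13, where 20% of all genes tested were higher and 30.9% lower, with a median log2 difference of -0.16. Tyrobp, which encodes the ITAM adaptor DAP12, fell by 0.33 (SE 0.019) from 1395 ± 45.7 to 1109 ± 40.9 TPM (SD, n = 12). Rac2, a GTPase of the phagocytic cup and the NADPH oxidase, fell by 0.44 (SE 0.027). Lcp2, which encodes the adaptor SLP-76, rose by 0.72 (SE 0.038) from 13.1 ± 0.957 to 22.3 ± 2.32 TPM. These 3 genes have limma adjusted p-values of 5.11e-11 or less. IL-33 averaged over IL-17A in the presence of IL-13 lowered 4 of the 19 (4.48% of all genes tested), among them Arpc1b, a subunit gene of the actin-nucleating Arp complex, by 0.08 (limma adjusted p = 0.00945), a call lost after median-ratio scaling (adjusted p = 0.428). With that scaling 4 of the 19 rose and 11 fell with IL-13. Of all 13215 genes tested it called 6803 for IL-13, 50.5% of them higher.

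Of 16 genes of inhibitory signalling, 3 rose and 8 fell with IL-13 (20% and 30.9% of all genes tested). Cd300a, an inhibitory receptor gene, fell by 0.61 (SE 0.021), Pirb, a receptor gene for MHC class I, by 0.66 (SE 0.034), the adaptor gene Dok3 by 0.55 (SE 0.028) and Ptpn6, which encodes the phosphatase SHP-1, by 0.50 (SE 0.025), each with a limma adjusted p of 4.57e-12 or less. Ptpn6 stood at 175 ± 6.39 TPM without and 123 ± 5.91 TPM with IL-13 (SD, n = 12). Pirb and Lilrb4a each have near-identical copies, and the treatment of reads they share is not stated. Averaged over IL-17A, IL-33 added to IL-13 raised 1 and lowered 3 of this list (2.53% and 4.48% of all genes). In that average Lilrb4a fell by 0.29 and Dok2 by 0.26 (limma adjusted p = 0.00161 and 0.00244). With median-ratio scaling 3 rose and 3 fell in that comparison, where it called 1109 of all genes tested, 46.9% of them higher. Of 2 other Fc receptor genes tested, both fell, as did 30.9% of all genes: Fcgrt, the neonatal Fc receptor, by 0.25 (SE 0.029, limma adjusted p = 5.40e-07) and Trim21, a cytosolic antibody receptor, by 0.18 (SE 0.061, limma adjusted p = 0.0183).

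Of 17 genes that couple anaphylatoxin receptors to G proteins and arrestins, 2 rose and 9 fell with IL-13 (20% and 30.9% of all genes tested). The regulators of G protein signalling Rgs1 and Rgs2 fell by 0.83 (SE 0.026) and 0.77 (SE 0.030), Arrb2, which encodes β-arrestin 2, by 0.50 (SE 0.030) and Gnai2, a Gi subunit gene, by 0.27 (SE 0.015), each with a limma adjusted p of 3.31e-11 or less. Median-ratio scaling gave 4 higher and 8 lower, where 50.5% of the 6803 genes it called were higher. Rgs1 stood at 450 ± 14.8 TPM without and 254 ± 18.5 TPM with IL-13. In the IL-33 comparison with IL-13 present, averaged over IL-17A, 2 of the 17 rose (2.53% of all genes). They were Gna15, by 0.14, and Rgs1, by 0.13 (limma adjusted p = 0.0184 and 0.0477). Of 7 other complement receptors and regulators tested, 3 rose and 3 fell with IL-13 (20% and 30.9% of all genes). After median-ratio scaling 3 rose and 1 fell, beside the same 50.5% higher among all genes called. Itgax, which encodes CD11c, another α chain that pairs with CD18, rose by 0.43 (SE 0.038) from 1711 ± 98.9 to 2313 ± 149 TPM, the opposite direction to Itgam. Calr and C1qbp rose by 0.37 and 0.29, and Cd93 fell by 0.96 (SE 0.083) from 52.7 ± 5.31 to 26.9 ± 5.23 TPM; the limma adjusted p of these 4 genes was 1.00e-08 or less.

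Of 9 complement component genes tested, 2 rose and 5 fell with IL-13, where 20% of all genes tested were higher and 30.9% lower. C3, the source of the C3ar1 and complement receptor 3 ligands, rose by 0.88 (SE 0.064, limma adjusted p = 7.20e-10) from 186 ± 15.5 to 345 ± 44.6 TPM, while C3ar1 fell. Properdin (Cfp) rose by 0.51 (SE 0.064), factor B (Cfb) fell by 0.61 (SE 0.063) and C2 fell by 0.53 (SE 0.031), with limma adjusted p-values of 1.59e-06 or less. Averaged over IL-17A, IL-33 with IL-13 present raised 1 of the 9 (2.53% of all genes), C2, by 0.23 (limma adjusted p = 0.00170). Of 12 β2 integrin partners and activators tested, 3 rose and 7 fell with IL-13 (20% and 30.9% of all genes): Itgax rose, Fermt3 (kindlin-3, which activates β2 integrins) rose by 0.36 (SE 0.030), and Rap1b and Skap2 each fell by 0.21 (limma adjusted p of 1.35e-08 or less). After median-ratio scaling 3 rose and 6 fell, where 50.5% of the 6803 genes called were higher. In the same IL-33 average 1 of the 12 was lowered (4.48% of all genes), Fermt3, by 0.19 (limma adjusted p = 0.00972). The median log2 differences of the 7 lists with IL-13 lay between -0.22 and -0.10, beside -0.05 for all genes tested.

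**Figure D5:**
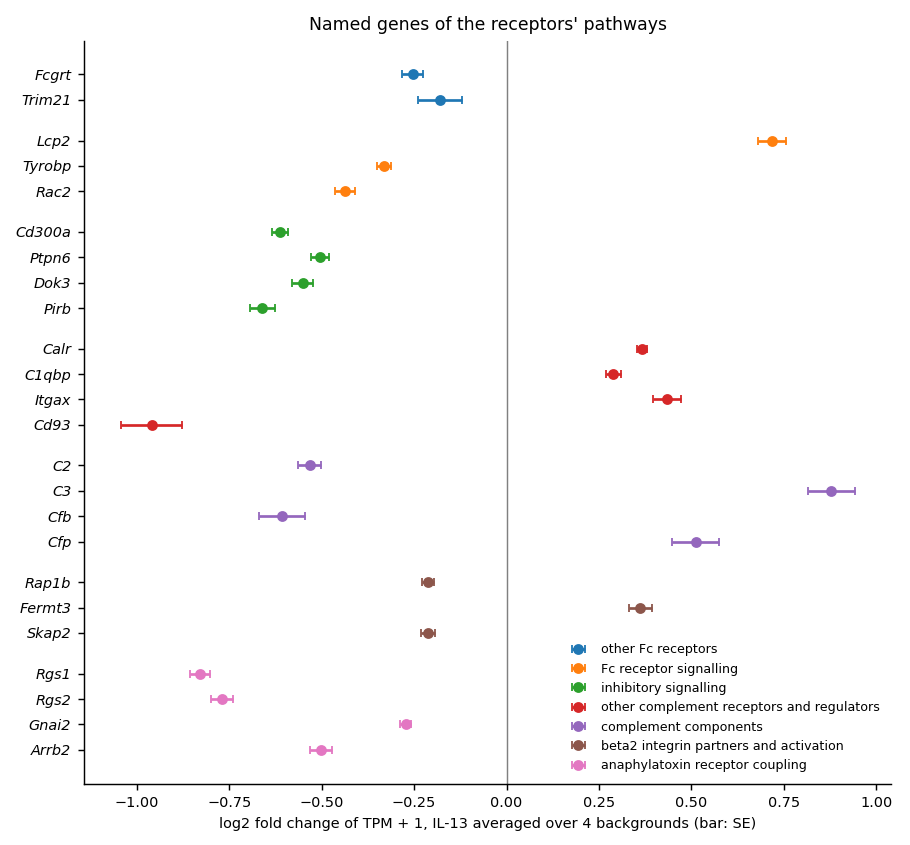
Log2 fold change of TPM + 1 for IL-13 averaged over 4 backgrounds (x axis) of named genes of 7 pathway lists (y axis, colour by list), with bars of 1 SE from limma. Lcp2, Calr, C1qbp, Itgax, C3, Cfp and Fermt3 lie to the right of 0 and the others to the left; Itgax belongs to 2 lists and is drawn once.

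Markers of other cells were measured beside these results. Of 12 neutrophil markers, 5 were in the tables, and their summed level was 161 to 205 TPM in the libraries without IL-13 and 99.0 to 159 TPM in those with it. S100a8 led this sum at 137 ± 12.8 and 91.4 ± 16.6 TPM. Csf3r went from 6.23 ± 0.925 to 1.98 ± 0.523 TPM and Cxcr2 from 8.44 ± 1.35 to 2.08 ± 0.847 TPM, while Mmp8 went from 25.0 ± 3.70 to 44.5 ± 19.9 TPM (SD, n = 12 for each). Neutrophils also express Itgam, C5ar1 and Fcgr4, and the part of such cells in these results was not tested. For monocytes and interstitial macrophages, 7 of 12 markers were in the tables, among them C1qa at 7.46 ± 1.56 TPM without and 5.20 ± 1.61 TPM with IL-13 and Ccr2 at 1.20 ± 0.251 and 1.01 ± 0.306 TPM. For dendritic cells 5 of 7 were, with sums of 6.97 to 9.14 and 20.0 to 28.8 TPM, of which Batf3 made up 4.29 ± 0.525 and 20.7 ± 1.59 TPM. For NK and T cells 2 of 10 were, with no sum above 1.19 TPM. No listed marker in the tables was at 0 in all libraries. Of 5 eosinophil, 9 mast cell and basophil and 7 B cell markers, 0 matched a gene of the tables used here, so these cells have no measured value here.

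Some of these genes share sequence. Fcgr2b and Fcgr3 lie on chromosome 1 with Fcgr4 between them, and they have near-identical parts. Of their 50-base transcript words, 4.38% for Fcgr2b and 9.58% for Fcgr3 occurred in the other. Their values moved in opposite directions, and the assignment of reads in shared parts is not stated. Itgam overlaps Gm49368 on the same strand, with which it shares 66.3% of its words, and Gm49368 was listed at 0.191 to 0.703 TPM. Fcgr2b also overlaps an antisense gene, Gm38204, and whether counting used strand is not given, so reads of both strands cannot be told apart. The protein sequences were not used here.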

How the data were processed

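RNA of 24 libraries was sequenced (Illumina) after RNeasy extraction, per the labels' protocols. The submitters' processing notes name STAR and the mouse build mm10. The counting tool, its use of strand and its handling of shared reads: not given in the sources used here. Per the file headers, the authors deposited TPM values for 17017 genes per library, and these use the whole gene span as length. Of the low values (under 20 reads), 90.2% to 91.7% per library were within 0.05 of a whole read after conversion, which gave the recovered reads used by voom.

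The test was limma-trend (limma 3.58.1, R 4.3.3) on log2(TPM + 1) over all 8 groups in 1 fit, for the 13215 genes that reached 1 TPM in 3 or more libraries, with Benjamini-Hochberg adjustment over all of them and a threshold of 0.05. A fold change on this scale understates the change of low genes. On simulated data for IL-13 averaged over backgrounds (13072 genes), 93.4% of changes of 0.5 log2 and 100% of those of 1 were recovered. Levels between genes used union exon lengths of GENCODE M21. Single TPM values are printed without counting intervals.

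The 9 genes and all lists were chosen with earlier results of these data known. Named were the 9 genes and, for each receptor, the 2 most correlated genes. From each list came up to 4 further genes called for IL-13 averaged over backgrounds, by smallest p. Up to 2 were added that were called for IL-33 added to IL-13 averaged over IL-17A, also by smallest p. Values of 2 further genes are not reported here. Alternatives were 2 other pseudocounts, 2 other filters, median-ratio scaling, the compared groups alone, voom, leaving out the libraries with title numbers of 30 or above, and leaving out each library. The omission of 3 libraries together was chosen after seeing the data. Replicate numbers were given in accession order and pair no libraries.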

Additional observations from a re-analysis of the deposited data

Results flagged for a closer look

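The effect of IL-33 on 2 receptor genes differed between cells with and without IL-13, by limma's interaction term averaged over IL-17A. For Fcgr2b the difference was 0.283 on the log2(TPM + 1) scale (limma adjusted p = 0.00312): all 6 libraries with IL-33 and IL-13 were above the 6 with IL-13 and no IL-33. For Itgb2 it was -0.230 (limma adjusted p = 0.00872), and all 6 libraries with IL-33 and IL-13 were below the 6 with IL-13 and no IL-33. Among all genes tested 3.57% were called in this interaction. The share of all genes that separate the 2 sets of 6 libraries was not counted.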

How the results depend on the processing

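No called receptor value changed direction under any alternative. Of 4425 receptor values under the alternatives, 110 uncalled ones changed sign. The number of receptor genes called moved by more than 1.5 times for 2 comparisons. For IL-33 added to IL-13 it was 0, and 2 with median-ratio scaling, with voom and without IL-33+IL-13+IL-17A replicate 2, IL-17A replicate 2 and untreated replicate 1 together. Leaving out single libraries gave 0 to 2 for this comparison. For IL-33 added to IL-13 and IL-17A it was 2, and 0 with only the groups compared, 1 without those 3 libraries, and 1 to 3 when single libraries were left out. The cause was not tested. The other 13 comparisons kept their count within 1.5 times, where the 5 for IL-13 and the IL-33 by IL-13 interaction moved by up to 2 calls. Of the single receptor values, 23 newly passed and 7 lost the test under alternatives other than leaving out 1 library, and 14 and 6 when 1 library was left out. The ratio Fcgr1 to Fcgr2b, with minus without IL-13, was -1.81 on the log2 scale and -1.28 with 1 TPM added to both genes. C5ar1 to C3ar1 went from -1.96 to -0.24 in the same way. With gene span in place of exon length, Fcgr2b and Itgam exchanged places 5 and 6 in the order of levels. C3ar1 and Itgb2 lost their calls for IL-13 with IL-33 and IL-17A present when only those groups were fitted (limma adjusted p = 0.0604 and 0.0942).

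Among all genes, the number called for IL-13 with IL-33 and IL-17A present was 4321, and 1847 with only the groups compared and 2068 without libraries numbered 30 or above. For IL-33 added to IL-13 it was 340 and 144 in the groups alone, and 212 to 418 when single libraries were left out (212 without IL-13 replicate 1 or 3 and 217 without IL-33+IL-13 replicate 3) and 503 without the 3 libraries together. For IL-33 added to IL-13 and IL-17A it was 469 and 49, and 286 to 666 without single libraries (286, 294 and 308 without IL-13+IL-17A replicate 3, 1 and 2, and 311 without IL-33+IL-13+IL-17A replicate 2). For IL-33 added to IL-13 averaged over IL-17A it was 926, and 614 in the groups alone. For the interaction it was 472, and 289 without libraries numbered 30 or above. No paired analysis was possible because the labels give no replicate numbers. Low read numbers limit Fcgr1 and C5ar1.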
